A study of Mus musculus with 2 samples.

Results

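The genes of mouse chromosome 3 were read as 1 unit, from the first detected gene to the last, and their RNA levels in dormant disseminated melanoma cells were set against those in the maternal cells and against the genes of the other autosomes. The arrays held 2066 probes for 1351 gene names on this chromosome after the histone genes whose names begin with Hist2h had been left out. A gene was kept as detected when its brightest probe was flagged by the scanner as well above background on both arrays, in either line, which left 580 genes of the 12424 detected in all. The other 771 gene names of the chromosome were not well above background, so their ratios were not described. Of the 580 genes, 539 were well above background in both lines and 41 in 1 line only. Chromosome 3 itself was chosen by its log2 ratio between the lines, so the shift of its genes is given as a description, with no test.

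B16F1 is a mouse melanoma line derived from the B16 tumour of the C57BL/6 strain, and both lines compared here carry a gene for the green fluorescent protein (GFP). B16F1-GFP-M is the maternal line. B16F1-GFP-D was grown from 1 colony of GFP-positive cells sorted from pooled organs of mice. These mice had stayed free of tumours for a year after challenge with the maternal cells. Some had been vaccinated with irradiated B16F1 cells that made the cytokine GM-CSF, and the control mice had received irradiated cells with an empty vector. The line is 1 clone and stands for no other dormant cell. In culture both lines received no treatment and were grown in DMEM with serum, and RNA was taken from the cultures. Their RNAs were compared on 2 two-colour arrays: on array 1 the maternal RNA carried Cy5 and the dormant line's RNA Cy3, and on array 2 the dyes were exchanged. No label tells of separate cultures or extracts, so there is 1 replicate per line, and a property of the line cannot be told apart from the state of the culture or from the choice of the clone. All values below are from 2 arrays, the standard deviation (SD) is that between the arrays, and it holds dye effects but no variation between cultures.

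Depth is read here from the share of spots well above background, which was 44.1% for B16F1-GFP-D and 60.7% for B16F1-GFP-M on array 1, and 56.1% and 45.0% on array 2, so on each array the line in Cy5 had the larger share. The melanocyte genes Dct, Mlana, Pmel, Tyrp1, Sox10, Mitf and Tyr were well above background in both lines. Ptprc, Pecam1, Cdh5, Epcam, Krt14 and Alb, which mark leukocytes, endothelium, epithelium and liver, were not detected in either line. Cd68, of macrophages, was well above background on both arrays in B16F1-GFP-D only, with log2 intensities of 6.75 and 6.82 against 6.23 and 6.46 in B16F1-GFP-M; its part in the results was not tested. In a bulk culture, fewer cells that use a gene and less RNA of it per cell cannot be told apart.

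Genes that lie on 1 chromosome share their position, not their function. Chromosome 3 of the mouse holds several clusters of related genes, among them the S100 calcium-binding proteins, the mu class of glutathione S-transferases, the guanylate-binding proteins and the second histone cluster. Between these clusters lie single genes for amino acid metabolism, translation, signalling and cell division. The arrays measured RNA and not DNA.

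Over the 580 genes the median log2 ratio between the lines, dormant DMC-derived over maternal, in which 0 is an equal level in both lines and -1 is a level 2-fold lower in B16F1-GFP-D, was -0.17 on array 1 and -0.13 on array 2. The median of the means of both arrays was -0.16, and the middle of the genes, from the lower to the upper quartile, lay between -0.43 and 0.14. The ratio was below 0 on both arrays for 330 genes, or 56.9%, and above 0 on both for 168 genes. It had opposite signs on the arrays for the other 82. Over all detected genes 42.7% were below 0 on both arrays. The share of 56.9% depended on the processing. It was 8.10% with each array only centred on its median, which leaves the dye effect in each array, and 38.0% with no filter on dim probes. The 42.7% holds for the main processing only, so neither of these 2 values can be set against it.

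The 11219 detected genes of the other autosomes had a median of -0.0049 and 42.4% of them were below 0 on both arrays. Chromosome 3 lay below them by 0.15 on the log2 scale (difference of medians -0.15 on array 1 and -0.15 on array 2). The distance was -0.15 at the lower quartile and -0.14 at the upper quartile, and larger towards both ends, with -0.17 at the 5th percentile and -0.22 at the 95th. At the 1st percentile chromosome 3 stood at -1.60 and the other autosomes at -1.30. Leaving out the 28 genes that changed by 2-fold or more, and all such genes elsewhere, left a difference of -0.13. The size depended on which genes were read: it was -0.0221 with no filter on dim probes, and -0.0769 and -0.0896 when array 1 or array 2 alone decided which genes were detected and gave the ratio. Among the autosomes, chromosomes 13 and 17 were the most similar, with medians of -0.17 each over 437 and 610 genes. The 16 remaining autosomes had medians between -0.07 and 0.03 on array 1 and between -0.05 and 0.08 on array 2. Their shares of genes below 0 on both arrays ran from 36.6% to 47.6%.

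**Figure D1:**
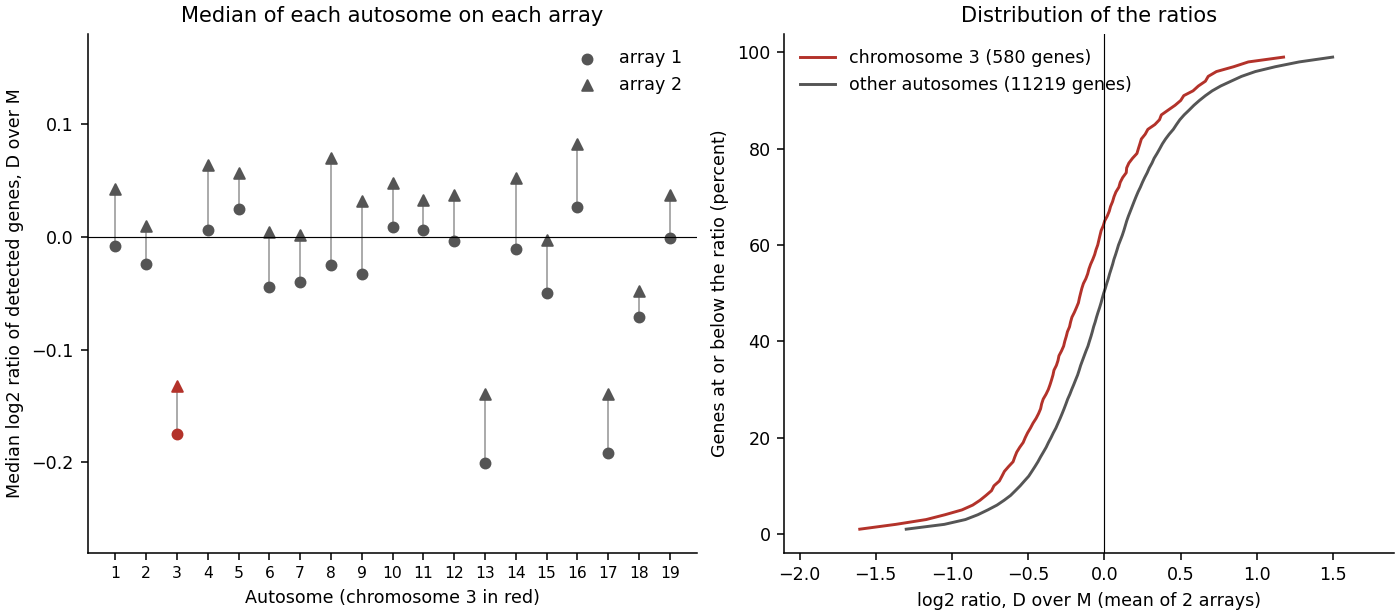
The left panel plots the median log2 ratio, with B16F1-GFP-D in the numerator, for the detected genes of each of the 19 autosomes on array 1 (circles) and array 2 (triangles), and the right panel the percent of genes at or below each ratio for chromosome 3 and for the other autosomes together. Chromosome 3 lies at -0.17 and -0.13, beside chromosomes 13 and 17 and below the 16 others, and its curve is shifted to the left over its whole length.

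Brightness and the base composition of the probes were compared as well. When the detected autosomal genes were split by brightness into 4 groups of equal size, chromosome 3 lay below the other autosomes by 0.08, 0.19, 0.16 and 0.20 on the log2 scale from the dimmest group to the brightest (differences of -0.08, -0.19, -0.16 and -0.20). The probes of chromosome 3 had a median GC content of 41.7% against 43.3% for the other autosomes. Within 4 groups by GC content the differences were -0.15, -0.14, -0.08 and -0.16 from the lowest to the highest. The difference was negative in each of these 8 groups. They split the same ratios by which the chromosome was chosen, so this is a description and no independent evidence. Whether brightness or base composition had a part in the shift was not tested.

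A check that the brightest probe did not enter came from other probes of the same genes. For 241 genes of chromosome 3 a further probe was also well above background, and the median of these was -0.12, against 0.02 for 4427 genes of the other autosomes. The brightest probes of the same 241 genes had a median of -0.22, and those of the 4427 genes of -0.04, so the distance to the other autosomes was smaller on the further probes. The sign was the same on both probes for 194 of the 241 genes and for 3467 of the 4427. These probes measured the same RNA on the same arrays, so they share every error of culture and labelling with the brightest probe.

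The decrease was not even along the chromosome. In 10 Mb stretches from the start of the chromosome (positions on mm9, the build of the array files), the median of the first stretch, with 8 genes, was -0.47. The next 3 stretches, up to 40 Mb, had medians of -0.25 (18 genes), -0.17 (11 genes) and -0.23 (34 genes). From 40 to 80 Mb the medians were 0.02, -0.04, -0.19 and 0.11 over 10, 38, 27 and 10 genes. The gene-dense middle of the chromosome was low again, with -0.24 over 97 genes from 80 Mb, -0.22 over 101 genes from 90 Mb and -0.26 over 78 genes from 100 Mb. From 110 to 120 Mb the median was -0.12 over 18 genes. The last 4 stretches, up to 160 Mb, had medians of 0.03, 0.08, -0.0039 and 0.06 over 38, 39, 30 and 23 genes, at the level of the other autosomes. In the stretches that begin at 70, 120, 130 and 150 Mb the median was below 0 on array 1 and above 0 on array 2. A median at or below -0.15, a limit chosen with the values known, was found in 8 of the 16 stretches of chromosome 3 and in 24 of 229 stretches with at least 8 genes on the other autosomes (10.5%). Of those 24, 7 were among the 12 stretches of chromosome 13 and 4 among the 9 of chromosome 17. The remaining autosomes had 13 of 208, so chromosomes 13 and 17 were again the most similar.

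**Figure D2:**
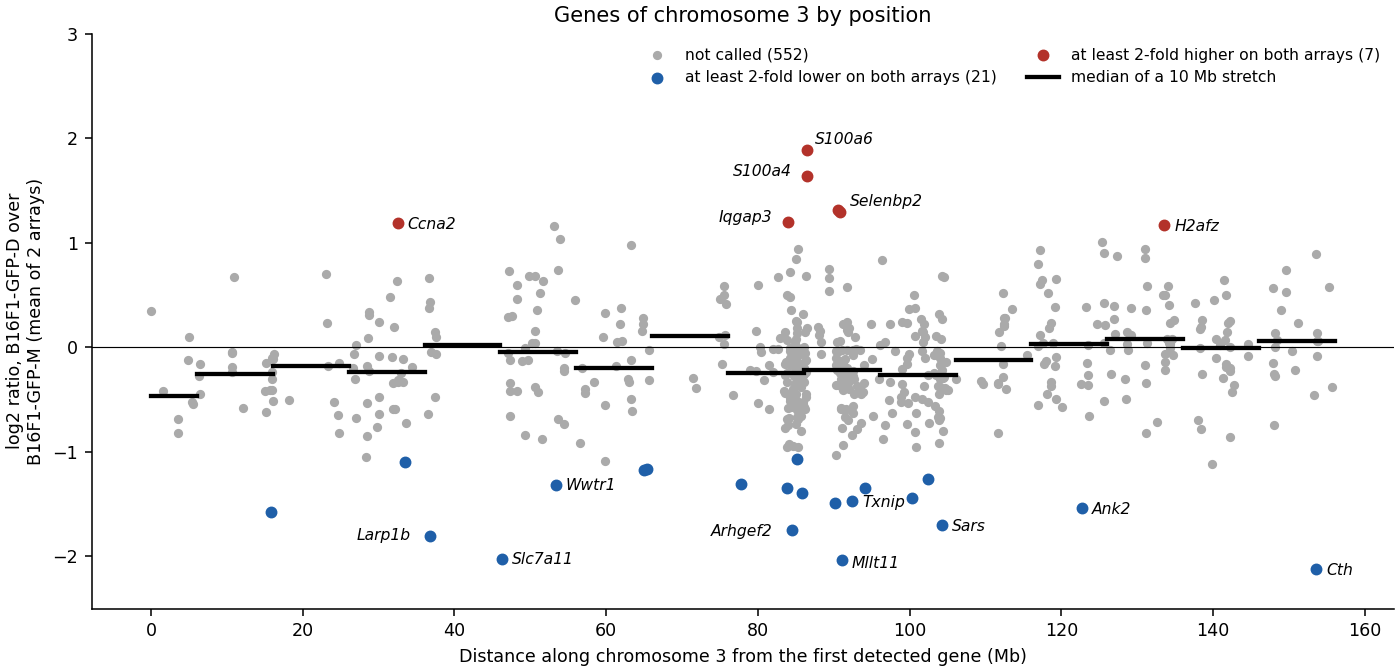
Each point is 1 of the 580 detected genes of chromosome 3, placed by its distance in Mb from the first detected gene, with its log2 ratio between the lines (dormant over maternal) as the mean of 2 arrays; black bars are the medians of 10 Mb stretches, drawn on the same axis. The bars lie at or below -0.17 in the first 4 stretches and in the dense middle, and near 0 in the last 4; the 21 genes at least 2-fold lower (blue) and the 7 at least 2-fold higher (red) stand on both sides of them.

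Put together as 4 zones, whose limits were also set after the stretch medians had been seen, the genes from 0 to 40 Mb (71 genes) had a median of -0.25 and those from 80 to 120 Mb (294 genes) of -0.24. The genes from 40 to 80 Mb (85 genes) had a median of -0.05, and those from 120 to 160 Mb (130 genes) of 0.04. The share below 0 on both arrays was 71.8%, 45.9%, 65.3% and 36.9% in the order of position. In 2 of the zones the arrays differed in sign. From 40 to 80 Mb the medians were -0.11 on array 1 and 0.0077 on array 2, and in the last zone -0.04 and 0.11. The further probes of the same genes had medians of -0.24, -0.14, -0.15 and 0.06 in the 4 zones. Single neighbours were hardly alike: over 479 pairs of adjacent genes of chromosome 3 at least 10 kb apart, the ratios had a Pearson correlation of 0.05 across genes, and over 9053 such pairs of the other autosomes of 0.06. Genes are not independent replicates, and all pairs share the arrays. Within a stretch the quartiles lay 0.26 to 0.87 apart, so a stretch median describes a shift of many genes, of which single genes departed widely in both directions.

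On this shift stood the genes that differed by 2-fold or more. Genes were called where each of the arrays gave a log2 ratio of 1 or more, or each gave -1 or less. On chromosome 3, 21 of the 580 genes, or 3.62%, were called lower in B16F1-GFP-D, beside 1.95% of all detected genes. Called higher were 7 genes, or 1.21%, beside 3.11% of all detected genes. No other autosome had a smaller share of genes called higher, and 2 had a larger share called lower. On both arrays all 28 were above background in both lines, and 552 genes were not called. The counts depended on the normalization within each array. With each array only centred on its median, in place of loess, 1 gene was called lower and 1 higher. Over the other autosomes 0.160% of genes were then called lower and 0.392% higher. No larger share of lower genes can be read from 1 gene. For some called genes the means of both arrays stayed about as large there. They were -2.12 for Cth, -1.87 for Mllt11, -1.95 for Slc7a11, 1.96 for S100a6 and 1.27 for Iqgap3. For others the means moved more. Closer to 0 were Sars, with -1.36 in place of -1.70, and Phgdh, with -1.01 in place of -1.35. So were Wwtr1, with -1.09 in place of -1.31, and Krtcap2, with -0.76 in place of -1.07. H2afz moved away from 0, with 1.496 in place of 1.17. All the genes that moved more went towards a higher level in B16F1-GFP-D. They were bright, with mean log2 intensities from 12.29 (Wwtr1) to 14.48 (Sars). The genes that kept their size had 7.68 (S100a6) to 11.22 (Mllt11). Centring leaves in place a trend of the ratio with brightness, which loess takes out, and its part here was not tested. The chromosome had been chosen on the same ratios, so these shares are a description of it.

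**Figure D3:**
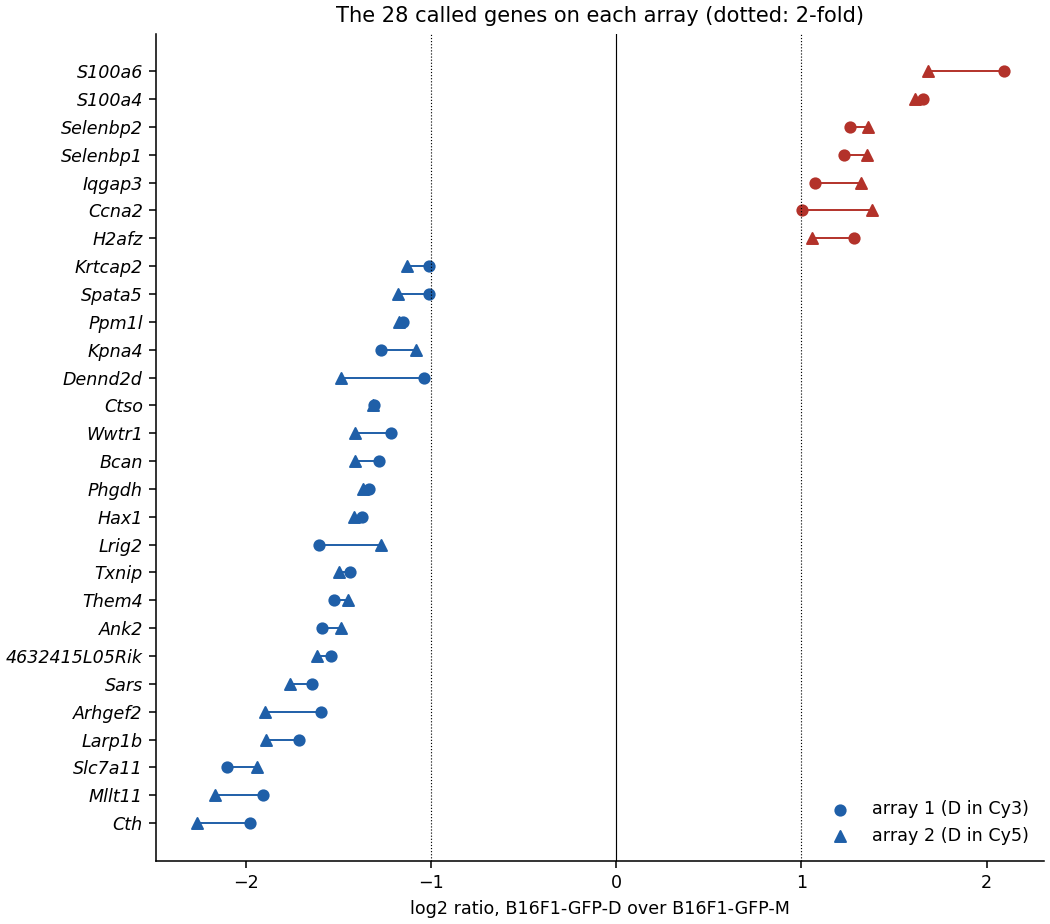
For each of the 28 called genes the log2 ratio between the lines (dormant over maternal) is plotted on array 1 (circles, B16F1-GFP-D in Cy3) and array 2 (triangles, B16F1-GFP-D in Cy5), with dotted lines at 2-fold. The 21 lower genes run from Cth at -2.12 to Krtcap2 at -1.07 and the 7 higher ones from H2afz at 1.17 to S100a6 at 1.89 as means of both arrays.

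Among the 21 lower genes, Cth, Slc7a11, Phgdh and Sars handle serine or cysteine; they are put together here after their values had been seen, and no list of such genes was counted. Cth (probe at chr3:157557667-157557726), the cystathionine gamma-lyase that makes cysteine from cystathionine, had a log2 intensity of 7.42 and 7.08 in B16F1-GFP-D on arrays 1 and 2, against 9.39 and 9.35 in B16F1-GFP-M. It was the lowest gene of the chromosome, 4.35-fold lower in B16F1-GFP-D (log2 ratio -2.12 ± 0.20, SD, n = 2 arrays). The ratio of Cth was -2.69 with a normexp offset of 0 and -2.92 with the scanner software's ratio. Slc7a11 (chr3:50176047-50176106), the light chain of the transporter that takes up cystine in exchange for glutamate, stood at 8.27 and 8.35 against 10.37 and 10.29. Its brightest probe gave a ratio of -2.02 ± 0.11 (SD, n = 2), and its 3 other probes gave -1.78 to -0.04, so the probes of this gene disagree in size.

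Phgdh (chr3:98117098-98117157), the first enzyme of serine synthesis, had levels of 13.67 and 13.83 in B16F1-GFP-D against 15.01 and 15.20 in B16F1-GFP-M. The ratio was -1.35 ± 0.02 (SD, n = 2), and 2 further probes gave -1.20 and -0.96. Sars (chr3:108229539-108229598), the cytosolic enzyme that loads serine onto its transfer RNA, stood at 13.59 and 13.66 against 15.23 and 15.42, a ratio of -1.70 ± 0.08 (SD, n = 2). On both arrays B16F1-GFP-D was the lower line for all 4 genes, as the call itself requires. They lie far apart, between 50 Mb and 158 Mb. Cth lies in the last zone, with a median of 0.04, and Slc7a11 in that from 40 to 80 Mb, with -0.05.

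Cth, Phgdh, Slc7a11 and Sars are known as targets of ATF4, the transcription factor of the amino acid response, which binds with C/EBP proteins to composite elements. The promoters of the 3 of these genes in the RefSeq table (GRCm38.p6) are shown as the 250 bases before the transcription start, 5′ to 3′ on the strand of the gene, to let the element be seen where it is found. Capitals mark TGATGNAAN, a form of the composite element, searched on both strands. Slc7a11 is at chr3:50443614-50443863 on the minus strand, Sars at chr3:108445260-108445509 on the minus strand and Phgdh at chr3:98339970-98340219 on the minus strand, and the sequences are:
Slc7a11: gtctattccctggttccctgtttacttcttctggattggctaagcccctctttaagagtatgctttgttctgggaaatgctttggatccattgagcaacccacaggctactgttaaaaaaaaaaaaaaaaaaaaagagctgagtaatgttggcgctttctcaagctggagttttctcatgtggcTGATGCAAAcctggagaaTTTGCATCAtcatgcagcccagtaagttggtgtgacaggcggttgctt
Sars: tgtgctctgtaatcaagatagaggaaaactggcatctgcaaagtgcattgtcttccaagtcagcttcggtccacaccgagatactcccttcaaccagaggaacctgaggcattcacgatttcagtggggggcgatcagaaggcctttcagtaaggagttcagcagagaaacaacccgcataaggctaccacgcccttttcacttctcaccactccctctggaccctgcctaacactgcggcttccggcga
Phgdh: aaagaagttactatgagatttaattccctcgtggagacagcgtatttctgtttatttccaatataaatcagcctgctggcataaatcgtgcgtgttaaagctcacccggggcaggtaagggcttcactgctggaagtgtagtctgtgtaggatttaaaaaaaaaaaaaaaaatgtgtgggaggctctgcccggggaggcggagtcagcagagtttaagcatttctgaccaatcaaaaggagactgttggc

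The Slc7a11 window held 2 matches facing each other, one on each strand, and the windows of Sars and Phgdh held none. Over all 32851 windows of this length in the table, 3.44% held a match. Counted by gene, 3.89% of 27025 genes held one in any of their windows. Among the called lower genes of chromosome 3 with a window, 2 of 17 genes held one, Slc7a11 and Hax1, and 11 of the 412 detected genes of the chromosome with a window did. A match is a description of letters and no evidence of binding, and a window without one says nothing about the factor.

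Other genes among the 10 lowest have different roles. Mllt11 (chr3:95023232-95023291), known as a fusion partner of the MLL gene in leukaemia, had a log2 intensity of 10.19 and 10.20 in B16F1-GFP-D against 12.10 and 12.37 in B16F1-GFP-M, a ratio of -2.03 ± 0.18 (SD, n = 2). Larp1b (chr3:40781476-40781535), of the La-related RNA-binding proteins, stood at 7.76 and 7.57 against 9.47 and 9.46, a ratio of -1.80 ± 0.13. Neither gene had another detected probe to set beside these values.

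Arhgef2 (chr3:88451463-88451522), a guanine nucleotide exchange factor that binds microtubules, had levels of 9.50 and 9.23 in B16F1-GFP-D against 11.09 and 11.13, a ratio of -1.75 ± 0.21, and its 3 other probes gave -1.57 to -1.04. Txnip (chr3:96365147-96365206), which binds thioredoxin and restrains glucose uptake, stood at 9.52 and 9.56 against 10.96 and 11.05. Its ratio was -1.47 ± 0.04 (SD, n = 2), and its other probe gave -0.99. All probes of Arhgef2 and Txnip thus pointed the same way.

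Them4 (chr3:94135723-94135782), a mitochondrial thioesterase that binds the kinase AKT, had a ratio of -1.49 ± 0.06. Ank2 (probe between 126705649 and 126706876), the ankyrin that links membrane proteins to the spectrin skeleton, had -1.54 ± 0.07 and a second probe at -1.41. The transcript 4632415L05Rik (chr3:19795677-19795736) had -1.58 ± 0.05 (SD, n = 2 arrays each). The arrays were close to each other for these 3 genes.

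The 11 remaining lower genes had ratios from -1.44 to -1.07; most of them are named here after their values had been seen. Wwtr1, also known as Taz, a co-activator of the Hippo pathway, stood at 11.65 and 11.62 in B16F1-GFP-D against 12.86 and 13.03 in B16F1-GFP-M, a ratio of -1.31 ± 0.14, with -1.01 on its other probe. Hax1, a mitochondrial protein that protects from cell death, had -1.39 ± 0.03, with other probes from -1.37 to -0.92. Bcan, a proteoglycan of the brain matrix, had -1.35, and Ctso, a cysteine cathepsin, -1.31. Lrig2, a membrane protein with leucine-rich repeats, had -1.44 on its brightest probe and 0.07 on its other, so its decrease rests on 1 probe. Dennd2d, Kpna4 (an importin that carries proteins into the nucleus), Ppm1l (a phosphatase), Spata5 and Krtcap2 (a subunit of the glycosylation complex) had -1.26, -1.17, -1.16, -1.09 and -1.07. Phgdh, described above, completes the 11.

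The 7 genes called higher fell into 3 kinds. S100a6 (chr3:90418160-90418219) and S100a4 (chr3:90409842-90409902), calcium-binding proteins of which S100a4 is known for its link with metastasis, lie 8318 bases apart. S100a6 had a log2 intensity of 8.53 and 8.71 in B16F1-GFP-D against 6.44 and 7.03 in B16F1-GFP-M, a ratio of 1.89 ± 0.29 (SD, n = 2). The level in B16F1-GFP-M was close to the lowest level of any probe well above background there, 6.05 on array 1 and 6.40 on array 2, and the ratio of S100a6 was 2.74 with a normexp offset of 0 and 3.102 with the scanner software's ratio. S100a4 stood at 9.24 and 9.41 against 7.58 and 7.79, a ratio of 1.63 ± 0.03. Both neighbours were thus higher in a stretch whose median was -0.22.

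Selenbp2 (chr3:94508262-94508321) and Selenbp1 (chr3:94748620-94748679), selenium-binding proteins of near-identical sequence, had ratios of 1.31 ± 0.07 and 1.29 ± 0.09 (SD, n = 2). Selenbp2 stood at 11.61 and 11.77 in B16F1-GFP-D against 10.35 and 10.41 in B16F1-GFP-M, and Selenbp1 at 11.80 and 11.72 against 10.57 and 10.37. The 2 probes, of 60 bases each, were identical at 18 positions when compared base by base without alignment. The probes of S100a4 and S100a6 were identical at 19. Such a count does not tell whether 2 probes share signal, and whether the RNA of either gene binds to the probe of the other was not tested.

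Iqgap3, Ccna2 and H2afz are genes of dividing cells. Iqgap3 (chr3:87924765-87924824), a scaffold protein of proliferating cells, stood at 9.98 and 10.17 in B16F1-GFP-D against 8.91 and 8.85, a ratio of 1.20 ± 0.18. Ccna2 (chr3:36463978-36464037), cyclin A2 of S phase and mitosis, stood at 11.63 and 11.74 against 10.63 and 10.36. It passed 2-fold narrowly on array 1, with 1.00, and by more on array 2, with 1.38. H2afz (chr3:137529371-137529430), now named H2az1, the histone variant H2A.Z, had 14.98 and 14.78 against 13.69 and 13.72, a ratio of 1.17 ± 0.16 (SD, n = 2).

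Promoters of cell cycle genes are known for CCAAT boxes, bound by NF-Y, and for the cell cycle homology region, bound by the DREAM complex. The windows of Iqgap3 (chr3:88081801-88082050 on the plus strand) and H2az1 (chr3:137864237-137864486 on the plus strand) on GRCm38.p6, from RefSeq, are shown with CCAAT and TTTGAA in capitals on either strand, as the 250 bases before the start:
Iqgap3: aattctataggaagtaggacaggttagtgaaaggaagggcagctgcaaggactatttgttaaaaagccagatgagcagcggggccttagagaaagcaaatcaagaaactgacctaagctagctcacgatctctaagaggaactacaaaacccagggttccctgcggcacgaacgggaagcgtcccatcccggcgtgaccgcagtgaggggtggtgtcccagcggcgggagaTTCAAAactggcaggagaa
H2az1: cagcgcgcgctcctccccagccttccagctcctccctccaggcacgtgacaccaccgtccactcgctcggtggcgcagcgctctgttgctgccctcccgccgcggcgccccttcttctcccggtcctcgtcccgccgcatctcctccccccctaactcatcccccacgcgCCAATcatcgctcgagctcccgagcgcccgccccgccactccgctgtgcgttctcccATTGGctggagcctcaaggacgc

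The Iqgap3 window held 1 match to the cell cycle homology region, near the start, and no CCAAT box, and the H2az1 window held 2 CCAAT boxes and no TTTGAA. Both motifs are common: CCAAT stands in 33.8% and TTTGAA in 15.99% of the 32851 windows of the same length. Counted by gene with a window, CCAAT was found in 4 of 6 genes called higher and 9 of 17 called lower. Of the 412 detected genes of the chromosome, 172 held it. TTTGAA was found in 2 of 6, 0 of 17 and 60 of 412.

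The genes on either side of the limit show how sharp it was. Just inside were Spata5, with -1.01 and -1.18 on arrays 1 and 2, and Krtcap2, with -1.01 and -1.13. Just outside were E130311K13Rik, with -1.17 and -0.997, and Zmat3, an RNA-binding target of p53, with -0.99 and -1.11. Among the higher genes, Ccna2 and H2afz were just inside and Elovl6, an elongase of fatty acids, with 1.08 and 0.94, and Tm4sf1, a tetraspanin-like membrane protein, with 0.94 and 1.39, just outside. A called and an uncalled gene near the limit thus had much the same mean ratio.

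Groups of chromosome 3 genes by known function were described next, by how many of their detected members were called and by their median, beside the 1.95% of all detected genes called lower, the 3.11% called higher and the median of -0.01 over all of them. The groups were written with earlier results of these data known, so their direction is no independent evidence.

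The genes of cell division and chromosome structure ran against the chromosome. All 17 were detected, 3 were called higher and none lower, and 16 of them were above 0 on both arrays, with a median of 0.66. Cdc14a, a phosphatase of mitotic exit, was at 0.01. Cks1b, a partner of the cyclin-dependent kinases, had a log2 ratio of 0.94, with 1.05 and 0.84 on the arrays, and Cenpe, the kinesin of the kinetochore, had 0.94, with 0.89 and 1.00. Ect2, the exchange factor of cytokinesis, had 0.70, Psrc1, a protein of the spindle, 0.68, and Plk4, the kinase of centriole duplication, 0.66. Smc4, of condensin, had 0.28 and Sass6, of the centriole, 0.28. Other probes gave 0.50 and 0.66 for Cenpe, 0.46 for Ect2, 0.43 and 0.47 for Psrc1 and 0.37 for Plk4. None of these 8 genes was called, and their values are given as measured.

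The group of signalling, transcription and cancer genes lay below the chromosome as a whole. Of 24 detected, 18 were below 0 on both arrays and 3 above, 2 were called lower (Txnip and Wwtr1) and none higher, and the median was -0.31. Mbnl1, a regulator of splicing, had -0.91 on its brightest probe but 0.01 and 0.05 on its other probes. Skil, a repressor of SMAD signalling, had -0.67 with -0.30 on its other probe, and Pik3ca, the catalytic subunit of a phosphoinositide 3-kinase, had -0.53 with -0.14 on its other probe. Rhoc, a small GTPase of the cytoskeleton, had -0.48. Foxo1, a transcription factor held back by AKT, had -0.42, Nras, a RAS oncogene, -0.35, Notch2, a receptor, -0.34, and Fbxw7, a subunit of a ubiquitin ligase, -0.31. The other probes gave -0.26 for Foxo1, -0.43 to -0.29 for Nras and -0.09 for Fbxw7. Cyr61, now named Ccn1, a secreted matrix protein, stood out in the opposite direction with 0.65, as 0.76 and 0.54 on the arrays.

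**Figure D4:**
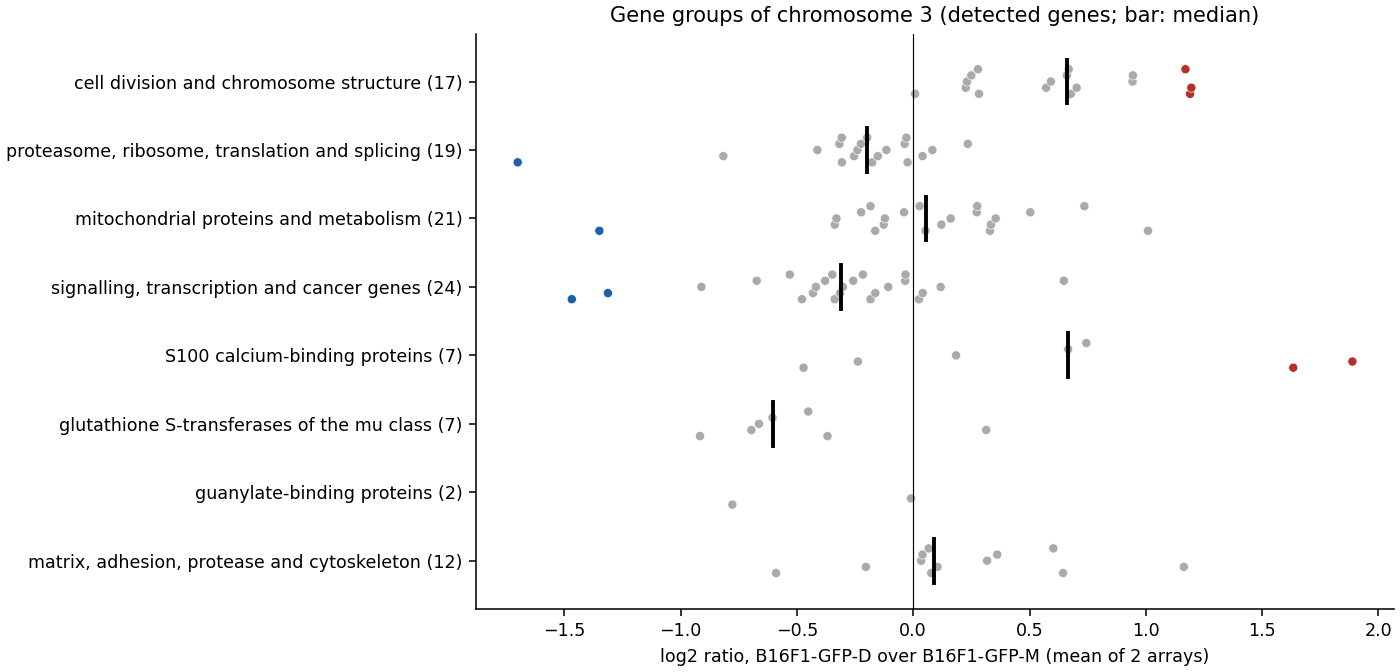
Each point is a detected chromosome 3 gene placed by its log2 ratio between the lines (dormant over maternal) (mean of 2 arrays) in its functional group, with the number of detected genes in brackets, the median as a bar, and called genes in blue (lower) or red (higher). The medians run from -0.60 for the glutathione S-transferases to 0.67 for the S100 proteins; points are spread vertically only to keep them apart.

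Families of neighbouring genes were described in the same way. Of the 12 S100 genes on the arrays, 7 were detected, 2 were called higher and none lower, with a median of 0.67. S100a10, the partner of annexin A2, had a ratio of 0.74 and S100a11 of 0.67, whereas S100a1 had -0.47, with -0.59 and -0.35 on the arrays, and S100a13 -0.24. Thus 5 members were above 0 and 2 below on both arrays.

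All 7 glutathione S-transferases of the mu class, which join glutathione to reactive compounds, were detected. None was called, 6 were below 0 on both arrays, and the median was -0.60. Gstm2 had a level of 12.41 and 12.68 in B16F1-GFP-D against 13.47 and 13.44 in B16F1-GFP-M, a ratio of -0.92 ± 0.21. Gstm6 had -0.70, Gstm7 -0.66 and Gstm1 -0.60, and Gstm4, in the same cluster, had 0.31 with 0.32 and 0.31 on the arrays. The other probes of Gstm7 and Gstm1 gave -0.22 and -0.31. The members are close copies of each other, and their probes may share signal. Of the guanylate-binding proteins, which answer to interferon, 4 were on the arrays and 2 were detected: Gbp2 had -0.78, with -0.94 and -0.61 on the arrays, and Gbp3 -0.01.

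The genes of the proteasome, ribosome, translation and splicing followed the chromosome. Of 19 detected, 11 were below 0 on both arrays and 1 above, with a median of -0.20, and Sars alone was called. Rpl22l1, a ribosomal protein paralog, had -0.82 on its brightest probe and 0.22 on its other. Prpf38b and Sf3b4, of the spliceosome, had -0.41 (-0.10 on its other probe) and -0.32, Aimp1, a scaffold of the transfer RNA synthetases, -0.31, and Rps3a, of the small ribosomal subunit, -0.24. Without Sars the lowest and the highest of the group were thus Rpl22l1 and Eif4e, the cap-binding protein, at 0.23. The arrays differed in sign for Eif4e, with -0.04 and 0.51. The 1 member above 0 on both arrays was Gar1, with 0.07 and 0.01.

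Mitochondrial proteins and metabolism had a median of 0.05 over 21 detected genes, with 9 below 0 and 11 above 0 on both arrays, and Phgdh alone was called. Acadm, of fatty acid oxidation, had a ratio of 0.74, and Slc16a1, the lactate transporter MCT1, 0.50, with 0.66 and 0.35 on the arrays. Gclm, the modifier subunit of glutathione synthesis, had -0.13. The 12 detected genes of matrix, adhesion, protease and cytoskeleton had a median of 0.09, with 7 above 0 and 2 below on both arrays and none called. F3, tissue factor, had 0.64, Cnn3, a calponin, 0.60 and Lmna, lamin A/C, 0.36, and Ecm1, a matrix protein, had -0.59 on its brightest probe and 0.09 on its other.

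The ends of the chromosome bracket these values. The first detected entry, the transcript NAP101561-1 (start at 3939380), had a ratio of 0.35, and the last, Wls (end at 159597926), the carrier that brings Wnt proteins to the cell surface, had -0.38, with 0.22 on its other probe. Both stood apart from the medians of their own stretches, -0.47 and 0.06.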

How the data were processed

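The dormant DMC-derived line B16F1-GFP-D and its maternal line B16F1-GFP-M were hybridised together on 2 two-colour Agilent arrays with exchanged dyes. The deposited intensity of each spot and its local background were measured by the authors with Agilent Feature Extraction 10.7.3.1 and carry no normalization. The deposited log10 ratios of Cy5 over Cy3, after the authors' own background subtraction and dye scaling, were used only in alternatives, and the deposited series table holds the same log10 values. The scanner flags gave the detected and the outlier spots; the latter were left out (143 on array 1, 176 on array 2).

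Mean signals were corrected with limma 3.58.1 (R 4.3.3) by normexp with an offset of 50, which draws ratios of dim spots towards 0, and normalized by loess within each array. Each log2 ratio was turned so that B16F1-GFP-D is the numerator, and the arrays were averaged. A gene is a gene name of the array with its brightest probe; detected means that the scanner flagged it as well above background on both arrays in either line. The authors' array positions (mm9) were kept. Of the 580 genes, 502 were matched to a RefSeq symbol of GRCm38.p6 through their accessions, and 45 of these differ from the array's name. Promoter sequences are from RefSeq, GRCm38.p6. Python 3.11.15 with pandas 2.3.3, numpy 2.4.6 and matplotlib 3.10.9 served for tables and plots. The normalization and the call of single probes were tested on simulated spots. A shift of a whole chromosome was not simulated.

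Genes were called where each array gave a log2 ratio of 1 or more, or each gave -1 or less; this is a rule of size and no test. The chromosome, the gene groups and the limits of zones were chosen with earlier results of these data known. Named are the 10 largest decreases and increases among called genes, the called members or up to 4 leading members of each group, the first and last gene and the genes next to the limit; further genes were named after their values were seen. The alternatives were other background corrections, the scanner software's ratio, median centring, the series table, other filters on dim probes, all probes of a gene, each array alone, a 1.5-fold limit and keeping the Hist2h genes. With 2 arrays, their number limits the precision.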

Additional observations from a re-analysis of the deposited data

How the results depend on the processing

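The decrease of chromosome 3 kept its direction in every alternative tried, and its size did not. Against -0.16 as reported, the median log2 ratio was -0.21 with a normexp offset of 0, -0.24 with the scanner software's ratio, -0.24 with the series value table, -0.0934 with median centring, -0.0233 with no filter on dim probes, -0.113 on array 1 alone and -0.0572 on array 2 alone. The difference from the other autosomes, -0.15 as reported, was -0.189, -0.204, -0.203, -0.165, -0.0221, -0.0769 and -0.0896 in the same order; it was -0.16 where both lines had to be above background, -0.14 when all probes of a gene were used and -0.13 without the genes past 2-fold. Each array alone also admitted genes detected on that array only, 768 and 692 in place of 580; over the 580 genes the arrays gave -0.15 each. The share of genes lower was 8.10% with median centring, 38.0% with no filter and 66.9% on array 1 alone, where only 1 array had to be below 0. No share over other genes at the same settings stands beside these values, so they do not tell of an excess or a deficit.

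The counts called lower and higher, 21 and 7 as reported, were 37 and 15 with an offset of 0, 51 and 18 with the scanner software's ratio, 77 and 34 at 1.5-fold, 51 and 17 with the series value table, and 1 and 1 with median centring, which leaves the dye effect in each array; 13 were higher on array 2 alone. Over the other autosomes the shares called lower and higher were 3.47% and 5.22% with an offset of 0. They were 4.63% and 6.22% with the scanner software's ratio and 6.87% and 8.81% at 1.5-fold. Each of these was larger than in the main processing, so the rise in calls was not confined to chromosome 3. With median centring the shares over the other autosomes were 0.160% and 0.392%. Array 2 alone read 692 genes of chromosome 3, and 3.504% of genes on the other autosomes were called higher there. The zones, like this comparison of them, were chosen after seeing the data, and in 10 alternatives those from 0 to 40 Mb and from 80 to 120 Mb had a median below 0 in all 10, from 40 to 80 Mb in 8 and from 120 to 160 Mb in 1. Of 55 named genes, 54 kept their sign in these 10 alternatives, and Gbp3 turned from -0.01 to 0.02 with median centring. Several of the alternatives could not change a sign, so this count is a weak check. The filters on dim probes leave the value of a single gene as it is. The series table repeats the scanner software's ratio, and the call itself fixes the sign of a called gene on each array. Depth limits what can be said of the 771 gene names that were not well above background. No paired analysis was possible because there is 1 replicate per line.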

Other observations

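The 5 histone genes of the second cluster, left out above because of their names, were all detected. Hist2h2be, a replication-independent histone H2B gene, had -1.06 (log2 ratio) on each array, and would have been a further gene called lower. Hist2h2ac was above 0 on both arrays, with 0.30 and 0.26, and Hist2h3c1 below 0 on both, with -0.08 and -0.26. The arrays differed in sign for Hist2h4, with -0.11 and 0.15, and for Hist2h2aa1, with 0.09 and -0.03. With them the median of the chromosome stayed at -0.16 over 585 genes.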
